A study of Mus musculus with 6 samples.

Results

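The genes described here mark the vessels of the brain: the endothelial cells that line them, the blood-brain barrier those cells form, and the pericytes and smooth muscle cells, together called mural cells, that wrap them. The 41 members were chosen by name, as the rows of the deposited table whose gene symbol is on a fixed list, and all 41 were found among 22544 rows. The table compares upper-layer cortical neurons from the Swiss Webster strain on postnatal day 3 (P3) with the same kind of neuron on postnatal day 5 (P5), with 3 biological replicates at each age. Cells of both ages were marked with green fluorescent protein (GFP) and sorted by fluorescence (FACS), and their total RNA was sequenced. The sources used here do not give how GFP was delivered or how the sort gate was set. Vessel cells are not the cells that the labels name. In such bulk samples, more vessel cells and more vessel RNA per cell cannot be told apart.

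Brain endothelial cells are joined by tight junctions and take up nutrients through dedicated transporters, while efflux pumps return drugs and toxins to the blood. Pericytes are recruited by platelet-derived growth factor from endothelial cells and help to keep the barrier closed. Vascular endothelial growth factor (VEGF) and the angiopoietins, made in part by neural cells, act on receptor tyrosine kinases of the endothelium, and the mouse cortex is still gaining capillaries in the first postnatal weeks.

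Expression is given as FPKM (sequenced fragments divided by the length of the transcript and by the size of the library), which is scaled for length and so allows levels of different genes to be compared. The deposited table holds 1 FPKM per gene and age, pooled over the replicates by the authors, so no value per replicate is shown, and the spread between replicates enters only through the test in that table. Ratios are P5 over P3 on the log2 scale. Each ratio is given with the standard error (SE) that the deposited test statistic implies, and only where both ages were above 0. A value of exactly 0 may stand for an estimate that failed, so such genes are called listed at 0. The labelled cell type was checked by its markers. The 8 cortical neuron genes looked up were all above 1 FPKM at both ages, with Neurod6, a transcription factor of excitatory cortical neurons, at 237 FPKM at P3 and 109 at P5, and neuronal tubulin Tubb3 at 75.6 and 155. Astrocyte and oligodendrocyte genes were present as well. The 4 vessel markers were low beside these: at P3 Pdgfrb was at 2.02 FPKM, Vtn at 1.40, Cldn5 at 0.797 and Pecam1 at 0.121.

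Most members had higher FPKM at P5 than at P3, and none differed by the authors' test. Of the 41 members, 35 were higher at P5, 5 were lower (Nos3, Pdgfrb, Rgs5, Sox17 and Tjp1) and Ly6c1 was listed at 0 at both ages. Of all 22544 rows, 9078 (40.3%) were higher at P5, 6240 were lower and 7226 were listed at 0 at both ages. The rows listed at 0 at both ages could not be higher and lower the share of 40.3%. The median over the 41 members was 0.018 FPKM at P3 and 0.701 FPKM at P5, against 0.481 and 1.0004 FPKM over all rows. A level of 1 FPKM was reached by 10 members at P3 and by 18 at P5, and 23 members stayed below it at both ages. The authors' Cuffdiff test covered 29 members, and 0 of them had q under 0.05, as did 0% of the 12865 rows tested in the authors' deposited table, where the lowest q was 0.999988. Without adjustment, 3 members had p under 0.05 in the authors' deposited table: Vtn, Itm2a and Esam, all higher at P5. The share of all tested rows that were higher at P5 with such a p was 0.591%.

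**Figure D1:**
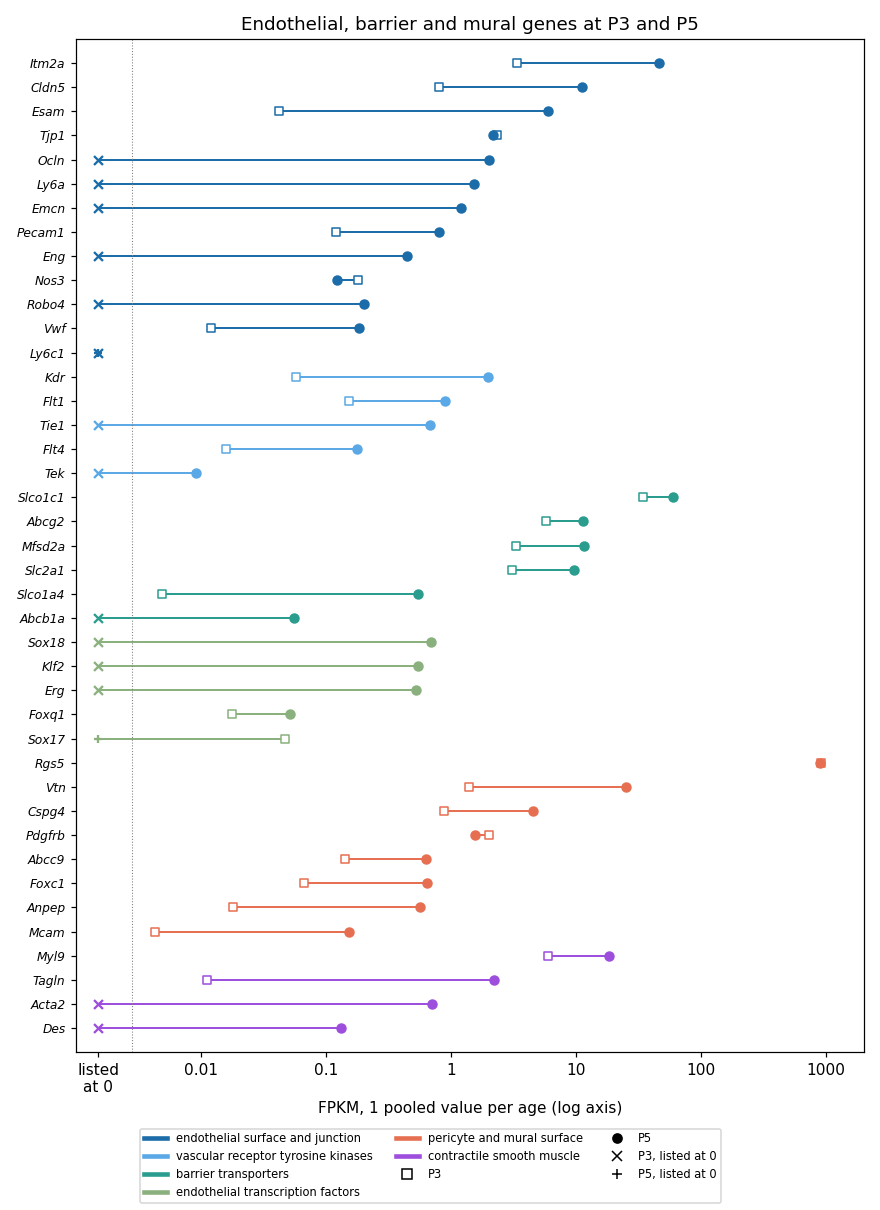
FPKM of the 41 members at P3 (open squares) and P5 (filled circles) on a log axis, coloured by role, with members listed at 0 drawn at the left edge as crosses. Most lines run from a lower P3 value to a higher P5 value, whereas Rgs5 lies far to the right at both ages (911 and 905 FPKM).

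Many members were listed at 0 at P3. This held for 13 members with a value above 0 at P5 (31.7% of the members), and the reverse held for 1, Sox17. Among all rows, 6.98% were listed at 0 at P3 only and 1.69% at P5 only. A member at 0 at P3 was tested only if its P5 value was high enough. This kind made up 8 of the 29 tested members, so the direction of those 8 was set by the filter. Tested members near 0 at P3 may also have passed through P5 alone. Those lowest at P3 were Slco1a4 (0.0049 FPKM at P3), Tagln (0.011), Anpep (0.018), Esam (0.042), Kdr (0.057) and Foxc1 (0.067). Pecam1 (0.121), Abcc9 (0.142) and Flt1 (0.153) were also below the P3 value of Nos3 (0.179), which was not tested. Of the tested members 26 were higher at P5 and 3 were lower, beside 56.8% higher among all tested rows. Among the 10 members that reached 1 FPKM at P3, 7 were higher and 3 lower at P5, beside 48.4% higher of the 10226 rows that reached it. The other 8 members that reached 1 FPKM did so at P5 only and were higher by that choice.

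For the 21 tested members above 0 at both ages, the median log2 ratio was 2.55, beside 0.13 for the 12313 rows of that kind. The ratios ranged from -0.38 for Pdgfrb to 7.64 for Tagln. Their SEs had a median of 1.91 and a minimum of 1.15 log2 units. The size of the median depends on low values at P3, and members near 0 there may have been tested only through P5. The median of 2.55 was the ratio of Flt1, which was at 0.153 FPKM at P3. With 1 FPKM added to both ages the median over all 41 members was 0.63, beside 0.00 over all rows. Of all rows, 7226 were listed at 0 at both ages and so had a value of 0 on that scale. Over the 21 tested members the median was 0.87 on that scale, beside 0.11 over the 12313 rows of that kind.

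**Figure D2:**
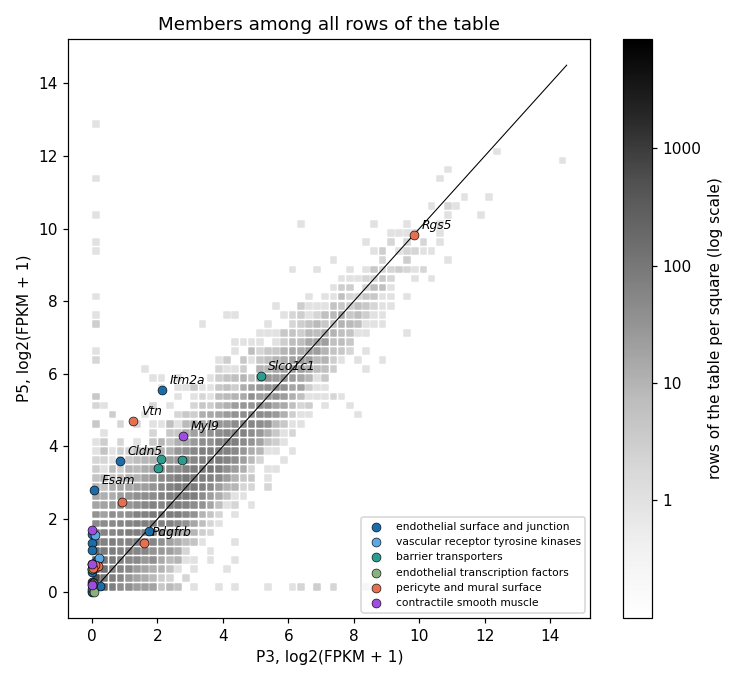
P5 against P3 for the 41 members (coloured points) and for all rows of the table (grey squares, darker with more rows), both axes as log2(FPKM + 1), with the line of equality. Itm2a, Vtn, Cldn5 and Esam lie above the line at low P3 values, and Rgs5 and Pdgfrb lie on or close to it.

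The letters before the transcription start are shown for 4 members that the description turns on: the tight junction gene Cldn5, the endothelial membrane protein gene Itm2a, the pericyte gene Vtn, which had the lowest p, and the mural gene Rgs5, whose pooled values were nearly equal. Each line gives the 250 bases before the start, read 5′ to 3′ on the gene's strand, from RefSeq on build GRCm38.p6, a newer build than that of the deposited loci. They are chr16:18776597-18776846 (+ strand) for Cldn5, chrX:107403361-107403610 (- strand) for Itm2a, chr11:78498870-78499119 (+ strand) for Vtn and chr1:169655251-169655500 (+ strand) for Rgs5. Capitals mark AGGAAG, letters that contain the core bound by ETS factors such as the member Erg, and CACCC, a core bound by KLF factors such as the member Klf2, each on either strand.
Cldn5: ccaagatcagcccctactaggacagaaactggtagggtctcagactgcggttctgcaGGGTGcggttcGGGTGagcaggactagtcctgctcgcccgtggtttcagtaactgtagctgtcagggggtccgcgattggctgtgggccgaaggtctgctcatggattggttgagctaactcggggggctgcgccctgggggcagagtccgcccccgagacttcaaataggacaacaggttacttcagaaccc
Itm2a: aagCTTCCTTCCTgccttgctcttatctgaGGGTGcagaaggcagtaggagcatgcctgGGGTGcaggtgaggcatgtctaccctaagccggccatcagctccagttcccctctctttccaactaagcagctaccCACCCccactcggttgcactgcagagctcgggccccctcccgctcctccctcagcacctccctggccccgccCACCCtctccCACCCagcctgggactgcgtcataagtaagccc
Vtn: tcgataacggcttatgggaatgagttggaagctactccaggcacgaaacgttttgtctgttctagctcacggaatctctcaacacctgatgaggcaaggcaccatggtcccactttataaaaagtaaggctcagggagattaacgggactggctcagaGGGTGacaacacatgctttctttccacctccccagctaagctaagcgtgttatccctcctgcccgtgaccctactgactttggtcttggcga
Rgs5: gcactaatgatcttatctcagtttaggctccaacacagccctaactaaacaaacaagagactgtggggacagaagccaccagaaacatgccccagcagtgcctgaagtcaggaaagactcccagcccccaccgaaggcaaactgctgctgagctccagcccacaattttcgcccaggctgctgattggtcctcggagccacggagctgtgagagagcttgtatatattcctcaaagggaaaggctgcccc

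In these windows Itm2a held 2 matches to AGGAAG, which overlap each other, and 5 to CACCC. Cldn5 held 2 matches to CACCC, Vtn held 1, and Rgs5 held none of either. Of the 41 members, 31 had an entry, with 37 starts in all. In the same windows of 250 bases, AGGAAG was present before 14 of the 37 starts (37.8%) and before 29.5% of all 32851 starts in the RefSeq table, and CACCC before 27 of 37 (73.0%) and before 52.0% of all. The motifs do not overlap each other, and a match describes letters only.

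The surface and junction genes of the endothelium held 2 of the 3 lowest p-values. Itm2a (mm9 chromosome X, 104592534 to 104598699) had 3.37 FPKM at P3 against 45.97 at P5. Its log2 ratio was 3.77 (SE 1.77, 95% interval 0.30 to 7.24), with p = 0.033 and q = 0.999988 in the authors' deposited table. Cldn5 encodes claudin-5, the main sealing protein of brain endothelial tight junctions (mm9 chromosome 16, 18776940 to 18778355). Its FPKM was 0.797 at P3 against 11.2 at P5, with a log2 ratio of 3.81 (SE 2.63, 95% interval -1.34 to 8.96, p = 0.15 in the authors' deposited table). Esam, an adhesion molecule of endothelial junctions, was at 0.042 and 5.95 FPKM (log2 ratio 7.15, SE 3.44, p = 0.038 in the authors' deposited table), and at 2.74 with 1 FPKM added. The interval of the Cldn5 ratio includes 0, and those of Itm2a and Esam lie just above it before adjustment over all genes.

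Pecam1, the adhesion receptor most used to mark endothelium (mm9 chromosome 11, 106515532 to 106576595), stayed below 1 FPKM. It was at 0.121 and 0.805 FPKM, with a log2 ratio of 2.73 (SE 3.56, 95% interval -4.24 to 9.71, p = 0.44 in the authors' deposited table). The tight junction protein gene Ocln was listed at 0 at P3 and was at 2.01 FPKM at P5 (p = 0.074 in the authors' deposited table). Its scaffold partner Tjp1, which many cell types express, was at 2.33 and 2.17 FPKM, a log2 ratio of -0.10 (SE 1.22, 95% interval -2.50 to 2.30). The capillary and venous sialomucin gene Emcn and the surface antigen gene Ly6a were listed at 0 at P3 and were at 1.20 and 1.54 FPKM at P5.

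The other surface genes were below 0.5 FPKM at both ages and were not tested. The transforming growth factor co-receptor gene Eng and the guidance receptor gene Robo4 were listed at 0 at P3 and were at 0.443 and 0.202 FPKM at P5. Vwf, the clotting glycoprotein of larger vessels, was at 0.012 and 0.183 FPKM, and Nos3, the endothelial nitric oxide synthase, at 0.179 and 0.121. Ly6c1 has a near-identical neighbour, Ly6c2, also listed at 0 at both ages, so the value of 0 is uncertain. Eng and Nos3 share their deposited loci with the genes Fpgs and Atg9b, and reads of overlapping genes could not be separated by strand as far as the sources tell.

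The receptor tyrosine kinases through which vessels answer growth factors were low, and all 5 were higher at P5. Kdr, the main signalling receptor for VEGF (mm9 chromosome 5, 76329299 to 76374453), had 0.057 FPKM at P3 against 1.97 at P5, with a log2 ratio of 5.11 (SE 3.10, p = 0.099 in the authors' deposited table), and of 1.49 with 1 FPKM added. Flt1, which binds VEGF and limits its action, was at 0.153 and 0.901 FPKM (log2 ratio 2.55, SE 2.72, p = 0.35 in the authors' deposited table). The orphan receptor gene Tie1 was listed at 0 at P3 and was at 0.680 FPKM at P5. Flt4, the receptor for VEGF-C in lymphatic and sprouting endothelium, was at 0.016 and 0.175 FPKM, and Tek, the angiopoietin receptor, was listed at 0 and at 0.0090. Kdr was the only one of the 5 above 1 FPKM at P5.

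Of the 6 barrier transporters, 4 were above 1 FPKM at both ages and 2 were below it, and all 6 were higher at P5. Slco1c1, the thyroxine carrier, which astrocytes also express (mm9 chromosome 6, 141472907 to 141518698), had 34.6 FPKM at P3 against 60.1 at P5, with a log2 ratio of 0.80 (SE 1.15, p = 0.49 in the authors' deposited table). Abcg2, an efflux pump, was at 5.78 and 11.4 FPKM (log2 ratio 0.98, SE 1.22, p = 0.42 in the authors' deposited table). Mfsd2a, the lysolipid carrier that brings fatty acids to the brain and restrains transcytosis, was at 3.33 and 11.6 FPKM, with a ratio of 1.80 (SE 1.44). The glucose carrier gene Slc2a1 was at 3.06 and 9.60 FPKM, with a ratio of 1.65 (SE 1.40). All 4 were already above 1 FPKM at P3.

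The remaining barrier transporters were near the floor of the table. Slco1a4, an organic anion carrier of brain endothelium, was at 0.0049 and 0.542 FPKM, a log2 ratio of 6.79 (SE 3.77, p = 0.072 in the authors' deposited table) and of 0.62 with 1 FPKM added. It lies 235 kb from Slco1c1 on mm9 chromosome 6, where the level was 34.6 and 60.1 FPKM. Abcb1a, which encodes the drug efflux pump P-glycoprotein, was listed at 0 at P3 and was at 0.056 FPKM at P5. Its close copy Abcb1b, looked up after the values were seen, was at 0.064 and 0.645 FPKM. Reads of the copies may not have been split reliably.

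Endothelial transcription factors were below 1 FPKM at both ages in all 5 cases. Sox18, an endothelial identity factor, was at 0.696 FPKM at P5, the shear-responsive factor gene Klf2 at 0.541 and the ETS factor gene Erg at 0.524, and all 3 were listed at 0 at P3. Klf2 had the lowest p of the group (p = 0.19 in the authors' deposited table). Foxq1 was at 0.018 and 0.051 FPKM. Sox17, a factor of arterial endothelium, was at 0.047 FPKM at P3 and listed at 0 at P5, opposite to its relative Sox18. No ratio above 0 at both ages could be given for a tested member of this group.

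**Figure D3:**
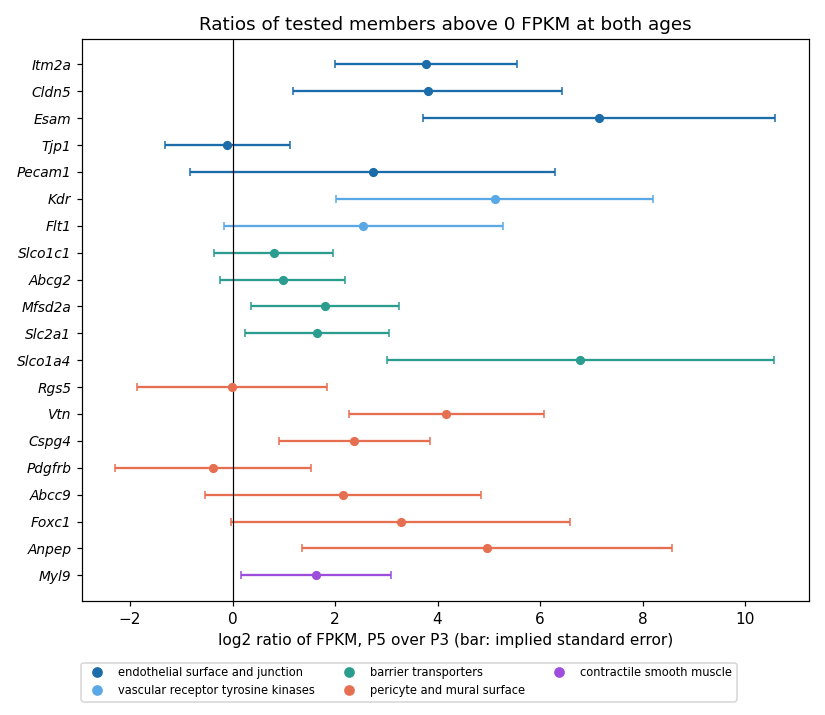
Log2 ratio of FPKM, P5 over P3, for the 20 tested members above 0 at both ages other than Tagln, whose SE of 50.1 is off this scale; bars are 1 implied SE on either side. The bars of Itm2a, Vtn and Esam are among those that stay above 0, and the ratios of Rgs5, Tjp1 and Pdgfrb lie at or just below 0.

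Of the 8 pericyte and mural surface genes, 6 were higher at P5. The 2 lower ones, Pdgfrb and Rgs5, had ratios within 1 SE of 0. Vtn, which encodes the matrix protein vitronectin (mm9 chromosome 11, 78312622 to 78315827), had 1.40 FPKM at P3 against 25.1 at P5. Its log2 ratio was 4.17 (SE 1.90, 95% interval 0.44 to 7.90), with p = 0.029 and q = 0.999988 in the authors' deposited table. Pdgfrb, the receptor through which pericytes are recruited (mm9 chromosome 18, 61204804 to 61244721), was at 2.02 and 1.55 FPKM, a log2 ratio of -0.38 (SE 1.91, 95% interval -4.13 to 3.36, p = 0.84 in the authors' deposited table). These markers of the same cell type thus had ratios of opposite sign, and their intervals overlap.

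Rgs5, a regulator of G protein signalling used as a pericyte marker (mm9 chromosome 1, 171585632 to 171623657), stood at another level altogether. Its FPKM was 911 at P3 against 905 at P5, with a log2 ratio of -0.01 (SE 1.85, 95% interval -3.64 to 3.62, p = 0.996 in the authors' deposited table). By FPKM it ranked 30th of all rows at P3 and 25th at P5. Its level was 451 times that of Pdgfrb at P3 and 584 times at P5, and 652 and 36.0 times that of Vtn. It made up 93.4% of the summed FPKM of the 41 members at P3 and 80.1% at P5. The sum of all members was 975 FPKM at P3 and 1131 at P5, and without Rgs5 it was 64.3 and 225 FPKM.

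Other pericyte genes were low. Cspg4, the proteoglycan NG2 of pericytes and of oligodendrocyte precursors, was at 0.878 and 4.54 FPKM (log2 ratio 2.37, SE 1.47, p = 0.11 in the authors' deposited table). The aminopeptidase gene Anpep was at 0.018 and 0.561 FPKM (4.97, SE 3.61, and 0.62 with 1 FPKM added), and Foxc1, a factor of mural and meningeal cells, at 0.067 and 0.648 (3.28, SE 3.30). Abcc9, the regulatory subunit of the vascular potassium channel gated by ATP, was at 0.142 and 0.632 FPKM. The pore subunit of that channel, Kcnj8, lies 16.5 kb away on mm9 chromosome 6 and was at 0.180 and 3.02 FPKM. Mcam, an adhesion molecule of mural and endothelial cells, was at 0.0043 and 0.154 FPKM and was not tested.

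All 4 contractile smooth muscle genes were higher at P5. Myl9, a myosin regulatory light chain (mm9 chromosome 2, 156601200 to 156607393), was the most abundant with 5.93 FPKM at P3 against 18.4 at P5 and a log2 ratio of 1.63 (SE 1.46, p = 0.27 in the authors' deposited table). Tagln, an actin-binding protein, was at 0.011 and 2.22 FPKM, but its log2 ratio of 7.64 had an SE of 50.1. The deposited Tagln locus spans 72.4 kb and is shared with Pcsk7 and Rnf214. Acta2, smooth muscle actin, was listed at 0 at P3 and was at 0.701 FPKM at P5 (p = 0.18 in the authors' deposited table). Des, the muscle filament protein desmin, was listed at 0 and at 0.131 FPKM and was not tested.

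Summed levels of endothelial and mural members were read with and without their most abundant gene. The 29 endothelial members summed to 53.9 FPKM at P3 and 171 at P5, and to 19.3 and 110 without Slco1c1. The 12 mural members summed to 921 and 960 FPKM, and to 10.5 and 54.6 without Rgs5. Among endothelial members 25 were higher at P5 and 3 lower, and among mural members 10 were higher and 2 lower.

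Other vessel genes on lists outside the members were read in the same way. Of 24 other endothelial genes, 20 were higher at P5 and 4 lower, 0 of 20 tested had q under 0.05, and 2 had p under 0.05, both higher at P5. Car4, the carbonic anhydrase of brain capillaries, was at 0.030 and 6.53 FPKM (log2 ratio 7.78, SE 2.69, p = 0.0038 in the authors' deposited table), and the phosphatase gene Ptprb was listed at 0 and at 0.712 (p = 0.045 in the authors' deposited table). The most abundant genes of that list differed less, with the sphingolipid receptor gene S1pr1 at 38.5 and 47.8 FPKM and the lactate carrier gene Slc16a1 at 8.53 and 13.8. Astrocytes express both of these. Of 12 other mural genes, 8 were higher and 3 lower at P5, and 0 of 10 tested had q or p under 0.05. Cald1 and Higd1b, the most abundant there, were at 8.63 and 7.43 and at 5.36 and 5.05 FPKM, Cnn1 was listed at 0 at both ages, and the peptidase gene Enpep was listed at 0 at P3 and was at 0.756 FPKM at P5.

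A further list held ligands and co-receptors of vessel growth and genes of the Wnt signal that induces the barrier. Of its 17 genes 13 were higher and 3 lower at P5, and 0 of 14 tested had q or p under 0.05. Tgfb1 was listed at 0 at both ages. The VEGF family gene Vegfb was at 14.8 and 13.1 FPKM. Wnt7a, a neural signal that induces barrier properties in endothelium, was at 18.7 and 9.01 FPKM (log2 ratio -1.05, SE 1.04, p = 0.31 in the authors' deposited table). Vegfa itself was at 3.03 and 5.16 FPKM and the angiopoietin gene Angpt1 at 2.28 and 5.93. Pdgfb, the endothelial ligand of Pdgfrb, was at 0.181 and 0.831 FPKM.

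**Figure D4:**
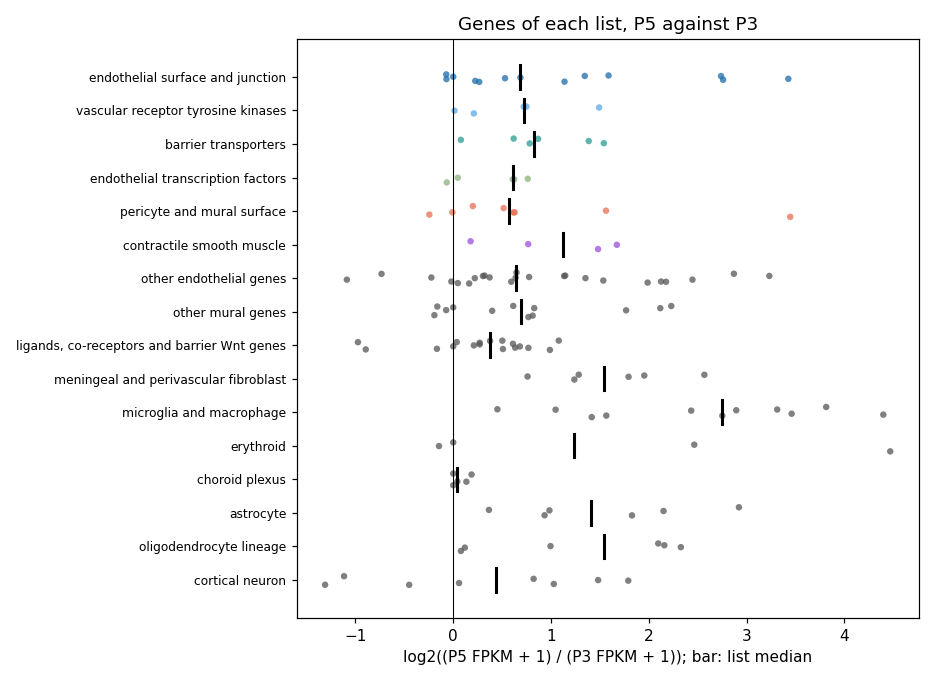
Each point is 1 gene and each black bar a list median, as log2 of P5 over P3 FPKM with 1 FPKM added to both, for the 6 role groups of members (colours) and for other lists (grey). The medians of the role groups lie between 0.57 and 1.12. Those of microglia, oligodendrocyte, fibroblast, astrocyte and erythroid genes lie above these, at 2.75, 1.55, 1.54, 1.41 and 1.23. Those of the remaining lists lie between 0.04 for choroid plexus genes and 0.69 for other mural genes.

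Genes of other non-neuronal cells were also higher at P5 in the same libraries, and their part in the vessel values was not tested. Of 11 microglia and macrophage genes 11 were higher, with a summed FPKM of 16.2 at P3 and 137 at P5 and with Tmem119 and Itgam listed at 0 at P3. The complement gene C1qb had 9.69 and 27.5 FPKM, the receptor subunit gene Fcer1g 0.488 and 30.4, and the lysosomal gene Cd68 0.194 and 15.8. All 6 fibroblast genes were higher (8.34 and 43.3 FPKM summed), led by the matrix gene Dcn at 2.45 and 19.4 FPKM and the collagen gene Col1a2 at 1.96 and 9.27. Haemoglobin RNA, which comes from red cells within vessels, was higher too, with Hbb-b2 at 1.90 and 63.2 FPKM (p = 0.026 in the authors' deposited table). Alas2, the haem synthesis enzyme of red cell precursors, was at 0.616 and 7.92 FPKM, and Hba-a2 was listed at 0 at both ages. Hbb-b1 and Hba-a1 were not analysed here.

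Neural lists give the scale for these values. All 6 astrocyte genes were higher at P5 and summed to 520 FPKM at P3 and 1473 at P5, with the gap junction gene Gja1 at 362 and 717 and Apoe at 64.9 and 498 FPKM. All 6 oligodendrocyte lineage genes were higher (122 and 243 FPKM summed), with the transcription factor gene Olig1 at 48.1 and 50.9. The 8 neuronal genes summed to 457 and 492 FPKM, with 5 higher and 3 lower at P5, and the synaptic gene Snap25 had the lowest p (0.080 in the authors' deposited table). Choroid plexus genes, looked up as a check for RNA of that tissue, were at or near 0 at both ages: Folr1 and Aqp1 were listed at 0, Ttr was listed at 0 at P3 and had 0.139 FPKM at P5, and Kcnj13 was at 0.512 and 0.660.

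Some members lie close to each other or to a listed gene, and their values are set side by side here. Pdgfrb lies 20.5 kb from the macrophage receptor gene Csf1r on mm9 chromosome 18. Pdgfrb was at 2.02 and 1.55 FPKM, whereas Csf1r was at 0.374 and 8.25. Robo4 and Esam lie 114 kb apart on chromosome 9 and were at 0.202 and 5.95 FPKM at P5. Foxq1 and Foxc1 lie 246 kb apart on chromosome 13 and were at 0.051 and 0.648 FPKM at P5. Ly6a and Ly6c1, 47.1 kb apart on chromosome 15, were at 1.54 FPKM and listed at 0 at P5.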

How the data were processed

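RNA of 6 samples was sequenced, 3 at each of 2 ages, grouped by their titles. TopHat, Cuffdiff 2.02 and build mm9 are named in the submitters' processing notes, without roles. The sources used here give no annotation, strandedness or read numbers. The authors deposited 1 table with an FPKM per gene and age, pooled over replicates, and with p-values and q-values, per the file headers. The log2 ratio and test statistic deposited there were handled as scores, because a placeholder stands where 1 age is at 0. Depth is unknown: 1 pooled FPKM per gene and age shows no read steps. Whether the replicates came from separate litters is not stated, so p-values concern these samples only. The SEs and p-values are those of the Cuffdiff test, and the observed scatter of the replicates cannot be read from them.

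Calls are the authors' own at q = 0.05, for rows with status OK. Their p matched a two-sided normal p of the statistic to within 2.8e-06, so the SE was taken as ratio over statistic and the 95% interval as 1.96 SEs. The step was run on simulated data, which checks its arithmetic only and not how the deposited statistic was made. Loci are mm9, with starts counted from 1. Promoters of 31 members were matched by symbol to RefSeq (GRCm38.p6), and motifs were chosen after the values were seen. Members and lists were chosen with earlier results of these data known. All members are reported. The 4 markers, and in each role group the 2 members with the highest mean FPKM and that with the lowest p, got ratios and errors. From each other list the same 3 genes were named, apart from some that are not reported here, with genes listed at 0 at both ages. Ly6c2, Abcb1b, Kcnj8, Tmem119, Itgam, Ptprb, Vegfa, Angpt1, Pdgfb and Csf1r were added after their values were seen. Python 3.11.15, pandas 2.3.3 and scipy 1.17.1 were used. Alternatives were other thresholds, pseudocounts of 1 and 0.1 FPKM, a minimum of 1 FPKM, centring, scaling, and leaving out members.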

Additional observations from a re-analysis of the deposited data

How the results depend on the processing

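The count of 0 members passing the deposited Cuffdiff test stayed 0 at q = 0.01, with Bonferroni adjustment and with p adjusted only over rows that reached 1 FPKM, and was 3 at an unadjusted p under 0.05. The median log2 ratio of 2.55 over 21 tested members was 0.87 with a pseudocount of 1 FPKM and 0.63 over all 41 members on that scale. The matching medians over all tested rows and over all rows were 0.11 and 0.00. The median of the members was 1.80 over the 15 with at least 1 FPKM at either age, beside 0.10 over the tested rows of that kind. Without 4 members listed as also expressed by neural cells (Tjp1, Slc2a1, Slco1c1 and Cspg4) it was 3.28. The members kept, Rgs5 among them, were not checked for neural expression. The median ranged from 2.03 to 2.99 under the other alternatives. Among 29 tested members, including 8 listed at 0 at P3 that had to be higher, 26 were higher at P5. The count was 15 of 18 with at least 1 FPKM at either age, beside 55.3% higher of the 11797 rows that reached it. Of those 18 members, 8 passed by their P5 value alone and had to be higher. The count was 7 of 10 with at least 1 FPKM at P3, an alternative chosen after seeing the data. It was 22 to 35 under the other sets of members, with 35 of 41 when status was ignored. The summed FPKM at P5 was 1.16 times that at P3, 1.22 times after upper quartile scaling and 3.50 times without Rgs5. With a pseudocount of 1 FPKM, 4 of 21 single ratios moved by more than their SE (Esam, Kdr, Slco1a4 and Anpep). No paired analysis was possible because the table holds 1 pooled value per age, and for the same reason no replicate could be left out. Depth could not be read, so values far below 1 FPKM have no known counting error.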
